A study of Homo sapiens with 16 samples.

Results

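The comparison described here is that of CAL62 cells given 1 µM DEL-22379 with CAL62 cells given the vehicle DMSO. It holds 4 of the 16 libraries of the series, 2 per group, chosen by cell line, agent and dose as the labels state them. CAL62 is a human line from anaplastic thyroid carcinoma, the undifferentiated form of the disease, and carries a mutant RAS gene. The cells were kept for 24 h in medium with 10% FBS and either agent, and polyadenylated RNA was sequenced from stranded libraries as pairs of 51 bp reads. The sample labels state the dose as 1 mM and the paper as 1 µM, and the paper's unit is used here. The remaining CAL62 libraries had DEL-22379 or U0126, each at 10 µM, and the same 4 treatments were given to 8505c cells, a BRAF-mutant anaplastic thyroid carcinoma line. Each line stands for 1 tumor, and nothing in the labels tells how the replicate cultures were set up. P-values therefore measure only the spread between libraries, which the main test estimated per gene from all 16 of the series.

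In the RAS-to-ERK pathway, RAF kinases activate MEK, MEK phosphorylates ERK, and ERK switches on transcription of growth genes together with its own inhibitors. DUSP phosphatases, Sprouty and SPRED proteins are such inhibitors, and FOS, JUN and EGR1 are transcription factors induced within minutes of a stimulus. DEL-22379 was described as a blocker of ERK dimers, whereas U0126 blocks MEK itself. In EGF-stimulated RAS-mutant lines, CAL62 among them, the paper found that DEL-22379 lowered neither ERK dimers nor ERK phosphorylation. Anaplastic thyroid carcinoma cells often make the matrix and motility proteins of mesenchymal cells, among them fibronectin, collagens and the plasminogen activator system, which TGF-β signaling also induces.

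The 4 libraries held 25683055 to 38715047 reads. Of 60715 genes, 19127 had at least 10 normalized counts in at least 2 of the 16 libraries and were tested. The replicate number weighed more than the drug. Among the 12720 tested genes with a mean of at least 50 normalized counts over the 4 libraries, 2003 differed over 1.5-fold between the DMSO replicates and 1866 between the 1 µM replicates. Within a pair of one number, 449 differed over 1.5-fold between drug and DMSO in pair 1 and 259 in pair 2. Libraries were therefore compared within pairs, as differences between 1 µM DEL-22379 and DMSO libraries of one replicate number. Mitotic genes show this split. The summed normalized counts of 24 G2/M genes were 191087 and 106858 in DMSO replicates 1 and 2 and 191117 and 110679 at 1 µM. Of 13 thyroid follicular markers, 8 were under 10 normalized counts in all 4 libraries, and 3 of these were at 0. PAX8, a thyroid lineage factor, had 7445 and 10716 in DMSO and 7285 and 9098 at 1 µM. PTPRC, a pan-leukocyte gene, was at 0 in every library. Of the 8 leukocyte markers, 6 were under 10 in all 4 libraries. The 8 summed to 1183 and 1480 in DMSO and to 1039 and 1496 at 1 µM. The summed endothelial markers reached 4.0 to 29.1. The summed fibroblast markers moved with the replicate number, with 5374 and 12938 in DMSO and 4863 and 11904 at 1 µM. Of the 8 fibroblast markers, 6 were under 10 in all 4 libraries, so few genes make up these sums. Their part in the results was not tested. In such bulk samples, fewer cells with a transcript cannot be told apart from less of it per cell.

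No gene passed the test at 1 µM, and the genes that differed alike in both pairs were few. In limma with the replicate number as a block, 0 of 19127 genes (0%) had an adjusted p under 0.05, and 561 (2.93%) had an unadjusted p under 0.05. The count was 13 without DMSO replicate 2 and 5 without 1 µM replicate 2. On the recovered reads, edgeR called 3 genes (0.0157%), LINC00707 and RUNX2 among them. DESeq2 called 6 of 34623 genes (0.0173%), among them LINC00707, RUNX2, HBEGF and DUSP5. When edgeR was given only the 4 libraries it called 304 (1.59%). Each gene then had 1 residual degree of freedom, and its spread was moderated towards that of the other genes. On the same 4 libraries limma called 0. On the 8 CAL62 libraries, edgeR called 0 genes (278 with an unadjusted p under 0.05), and the adjusted p was 1 for LINC00707 and 0.797 for RUNX2. The same limma fit called 4204 genes higher and 4202 lower at 10 µM DEL-22379 (22% each), and 3872 higher (20.2%) and 3782 lower (19.8%) with U0126. In 8505c cells at 1 µM it called 14 genes (0.0732%). Values below are normalized counts, and differences are on the log2(normalized count + 1) scale with their standard error (SE). Each SE comes from the limma fit of all 16 libraries and not from the 4 compared.

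Among the genes that were higher, LINC00707, a long noncoding RNA at chr10:6779549-6879450 (GRCh38, plus strand), had the smallest p. Its normalized counts were 53.5 and 94.2 in DMSO and 236 and 215 at 1 µM, so both treated libraries lay above both vehicle libraries. The difference was 1.65 (SE 0.22), or 3.14-fold, with an adjusted p of 0.148 in limma, 0.0238 in edgeR and 6.6e-10 in DESeq2. It was 2.12 in pair 1 and 1.18 in pair 2. HBEGF (chr5:140332843-140346631, minus strand), a membrane-bound ligand of the EGF receptor, had 3142 and 3158 in DMSO and 5139 and 4603 at 1 µM. The DMSO libraries of HBEGF were nearly equal and both treated libraries stood above them, 1.54-fold by the fit (0.63, SE 0.11). Its adjusted p was 0.375 in limma and 0.0034 in DESeq2. DUSP5, a nuclear phosphatase that inactivates ERK, had 1484 and 1354 in DMSO and 3056 and 1936 at 1 µM. The groups of DUSP5 did not overlap, but pair 1 differed by 1.04 and pair 2 by 0.52, and the adjusted p was 0.474 in limma and 0.0094 in DESeq2. RGS2, which shortens the signal of Gq-coupled receptors, had 60.2 and 155 in DMSO and 147 and 281 at 1 µM. Its groups overlapped, since DMSO replicate 2 exceeded 1 µM replicate 1, while both pairs differed upwards by 1.28 and 0.85.

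The other genes of the 15 with the smallest p among those higher in both pairs differed by 0.36 to 3.74. PHLDA2, an imprinted growth suppressor of the placenta, differed by 0.47 (SE 0.11), and its groups overlapped. WWC1 (KIBRA), an activator of the Hippo pathway, had 1570 and 1902 in DMSO and 2236 and 2309 at 1 µM without overlap. GAB2, a docking protein between receptors and RAS, had 170 and 226 against 254 and 300, again without overlap. ID3, a dominant-negative helix-loop-helix protein, had 1123 and 1806 against 1463 and 2273, and its replicates lay further apart than its groups. The zinc finger gene ZNF778 (0.42), the microtubule-binding protein gene EML6 (0.67) and AC012254.2 (0.65) did not overlap between groups, and RNASE4 (1.01), a secreted ribonuclease, did. FAM220A was at 10.7 and 14.8 in DMSO and at 277 and 117 at 1 µM, the largest difference of the 15 (3.74) with the largest SE (1.03). In 8505c cells FAM220A differed by -3.42 (SE 1.03) at the same dose, with 4.56 and 335 in DMSO and 0 and 15.2 at 1 µM. At 10 µM in CAL62 cells it had 12.8 and 239, so replicates of one group could lie as far apart as the groups. AC009412.1 ran opposite to FAM220A at 1 µM, with 237 and 319 in DMSO and 0 and 150 at 1 µM. Whether FAM220A and AC009412.1 share reads was not tested. NOTCH2NLB (1.11) and NBPF19 (0.48) belong to families of near-identical copies, so the assignment of their reads is uncertain.

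Among the genes that were lower, RUNX2 was called by both count models on the 16 libraries. RUNX2 (chr6:45328157-45664349, plus strand), the master factor of bone formation, had 529 and 715 in DMSO and 239 and 243 at 1 µM. RUNX2 was thus 2.54-fold lower (-1.35, SE 0.21) without overlap, with an adjusted p of 0.202 in limma, 0.0424 in edgeR and 7.3e-06 in DESeq2. It differed by -1.14 in pair 1 and -1.55 in pair 2. Its relatives did not share the difference. RUNX1 had 1991 and 1992 in DMSO and 1997 and 1869 at 1 µM, and RUNX3 had 34.8 and 30.5 against 36.6 and 48.5.

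**Figure D1:**
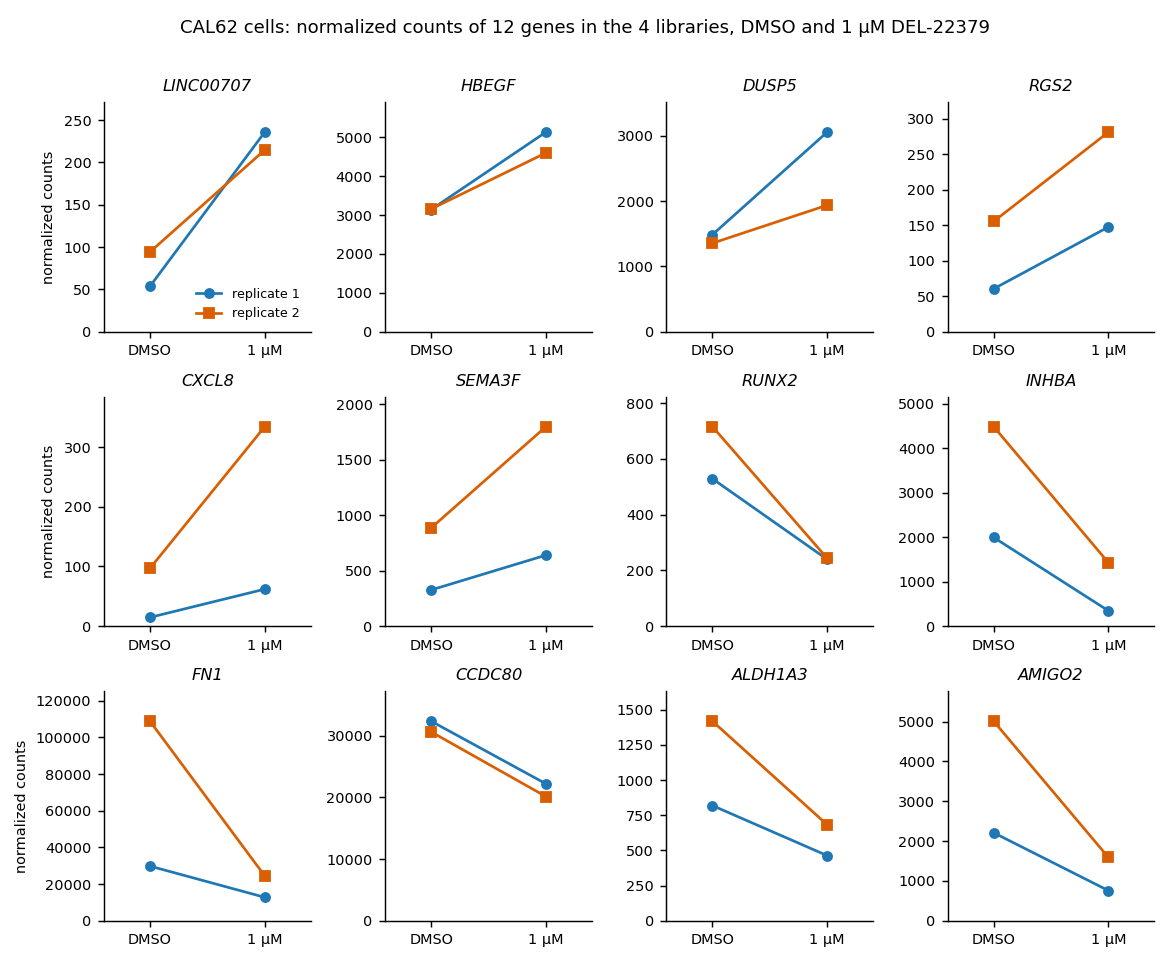
Normalized counts (linear axes from 0) of 12 genes in the 4 CAL62 libraries, with replicate 1 as blue circles, replicate 2 as orange squares and a line joining the DMSO and 1 µM DEL-22379 libraries of one number. Every line runs in one direction within a gene, as for RUNX2 (529 to 239 and 715 to 243), while the replicates of FN1, INHBA, CXCL8 and SEMA3F lie far apart.

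Larger differences with a wider spread were seen for INHBA and FN1. INHBA (chr7:41667168-41705834, minus strand) encodes the subunit of activin A, a ligand of the TGF-β family. It had 1995 and 4485 in DMSO and 346 and 1426 at 1 µM. The highest treated library was below the lowest vehicle library, and the difference was -2.09 (SE 0.49, 95% interval -3.21 to -0.97), or 4.26-fold lower. FN1 (chr2:215360440-215436172, minus strand), fibronectin, had 29834 and 108890 in DMSO and 12780 and 24455 at 1 µM. Here the DMSO replicates differed more from each other than pair 1 did, and the fitted difference was -1.69 (SE 0.41). The adjusted p was 1 in limma for both INHBA and FN1. CCDC80, a secreted matrix-binding protein, had 32365 and 30630 in DMSO and 22206 and 20136 at 1 µM, and ALDH1A3, which makes retinoic acid, had 819 and 1419 against 463 and 682. Neither overlapped between the groups.

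The remaining genes of the 15 on the lower side differed by -0.37 to -1.14. The Wnt ligand gene WNT5B had 542 and 293 in DMSO and 314 and 228 at 1 µM, so that its groups overlapped. The adenosine receptor gene ADORA2B had 1726 and 1148 against 1127 and 928, with 1 µM replicate 1 just under DMSO replicate 2. SH3BP4 (-0.39), an endocytic adaptor, and CEP250 (-0.41), a linker of the centrioles, did not overlap between groups either. BTG1 (-0.37), an antiproliferative gene, did overlap. The lower group also held AP003108.2 (-1.14), the pseudogene IKBKGP1 (-0.94) and UPK3BL2 (-0.96). Reads of IKBKGP1 and UPK3BL2 may be shared with near-identical copies and are uncertain. UTP14C, which like LINC00707 and RUNX2 is on the study's own list for this comparison, had 12.9 in DMSO replicate 2 and 0 in the other 3 libraries. That list was drawn from these same samples and gives no independent evidence.

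The promoters of RUNX2, INHBA, FN1 and CXCL8 are shown, chosen after the values were seen, because each of these genes differed widely within both pairs and holds an element of the families searched. The sequences are from RefSeq (GRCh38.p14), the 250 bases before the RefSeq start, read 5′ to 3′ on the strand of the gene. The RefSeq starts of RUNX2, INHBA and FN1 differ from the starts of the gene intervals given above. Capitals mark the RUNX element TGTGGT or its reverse complement in RUNX2 (chr6:45328080-45328329, plus strand) and INHBA (chr7:41703091-41703340, minus strand). They mark the cyclic AMP response element TGACGTCA in FN1 (chr2:215436069-215436318, minus strand) and the AP-1 element TGANTCA in CXCL8 (chr4:73740319-73740568, plus strand).
RUNX2: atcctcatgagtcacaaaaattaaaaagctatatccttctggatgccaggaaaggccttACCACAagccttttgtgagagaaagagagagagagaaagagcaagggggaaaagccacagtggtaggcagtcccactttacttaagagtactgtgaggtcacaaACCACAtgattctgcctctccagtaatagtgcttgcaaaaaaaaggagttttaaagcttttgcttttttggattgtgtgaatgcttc
INHBA: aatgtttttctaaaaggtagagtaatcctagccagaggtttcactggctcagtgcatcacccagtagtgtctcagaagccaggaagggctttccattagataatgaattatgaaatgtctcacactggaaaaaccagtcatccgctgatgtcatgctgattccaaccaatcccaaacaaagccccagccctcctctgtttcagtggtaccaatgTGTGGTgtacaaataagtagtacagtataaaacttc
FN1: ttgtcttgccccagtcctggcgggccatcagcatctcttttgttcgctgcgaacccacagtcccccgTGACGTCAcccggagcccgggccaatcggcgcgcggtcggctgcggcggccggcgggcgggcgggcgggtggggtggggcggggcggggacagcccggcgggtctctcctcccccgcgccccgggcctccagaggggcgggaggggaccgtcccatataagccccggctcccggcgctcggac
CXCL8: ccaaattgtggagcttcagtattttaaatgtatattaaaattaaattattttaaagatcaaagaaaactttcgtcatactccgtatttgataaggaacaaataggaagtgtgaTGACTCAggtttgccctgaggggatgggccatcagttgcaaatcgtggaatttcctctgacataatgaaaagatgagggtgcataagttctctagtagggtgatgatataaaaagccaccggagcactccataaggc
RUNX2 holds 2 RUNX elements, the first at -191 to -186 from the start, and an AP-1 element at -243 to -237 that is not capitalized. INHBA holds its RUNX element at -36 to -31, FN1 its response element at -183 to -176 and CXCL8 its AP-1 element at -137 to -131. Both strands were searched, and elements of different families could overlap. A match describes the letters of the window and does not show that a factor is bound.

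A count within pairs gave 84 genes. Over 1.5-fold in one direction in both pairs, 40 of the 12720 genes were higher (0.314%) and 44 lower (0.346%), while 26 (0.204%) differed over 1.5-fold in opposite directions. Both 1 µM libraries lay above both DMSO libraries for 840 of the 12720 genes (6.6%) and below them for 997 (7.84%). By type, 36 of the 40 and 38 of the 44 were protein-coding. Some held a 0, as AC009412.1 did in 1 µM replicate 1 and AC005832.4 in 1 µM replicate 2. H4C14 was higher, with 22.8 and 195 in DMSO and 90.8 and 384 at 1 µM. H4C15 was lower, with 65.6 and 302 against 2.22 and 83.2. Whether H4C14 and H4C15 share reads was not tested. The limit itself is arbitrary. APOE and WNT7B were just inside it, with 0.59 and -0.59 in pair 2, and ADAM19 was just outside with -0.58 in pair 2. Those below were chosen after their values were seen.

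Of the 40 genes on the higher side, those described here differed by between 0.62 and 1.89. CXCL8 (interleukin-8), a neutrophil attractant, had 14.7 and 96.9 in DMSO and 62.0 and 334 at 1 µM. It differed by 2.00 and 1.78 within pairs, but DMSO replicate 2 exceeded 1 µM replicate 1. CXCL1, a related chemokine, had 115 and 341 against 333 and 584, and NFKBIZ, a nuclear regulator of NF-κB targets, had 1502 and 2020 against 2277 and 3162. Of these, only NFKBIZ did not overlap between groups. Over the cytokine and chemokine list, 9 of 21 tested genes were higher and 4 lower in both pairs, with a median of 0.06, and none passed the test. CXCL2, another chemokine of that list but not one of the 40, had 178 and 139 against 253 and 188 without overlap. SEMA3F, a repulsive guidance cue, had 327 and 886 in DMSO and 640 and 1799 at 1 µM, with differences of 0.97 and 1.02 in the pairs. CD24, a surface glycoprotein, had 106 and 1286 against 295 and 3125, so that its replicates differed far more than its groups. APLN, the ligand of the apelin receptor, had 1744 and 951 against 3312 and 1612. PDE4D, a phosphodiesterase that breaks down cyclic AMP, had 407 and 1144 against 1302 and 1831 without overlap. DUSP1, a phosphatase of p38, JNK and ERK, had 514 and 1675 against 818 and 2597.

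On the lower side, AMIGO2, an adhesion protein, had 2211 and 5012 in DMSO and 757 and 1589 at 1 µM. It differed by -1.55 and -1.66 within pairs without overlap of the groups. PTPRB, a receptor phosphatase known from endothelium, had 119 and 203 against 43.2 and 88.0. TNFRSF11B (osteoprotegerin), a decoy receptor that restrains bone resorption, had 434 and 631 against 267 and 337. PTPRB and TNFRSF11B did not overlap between groups. VDR, the vitamin D receptor, had 155 and 355 against 88.6 and 220, and its replicates differed more than its groups.

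**Figure D2:**
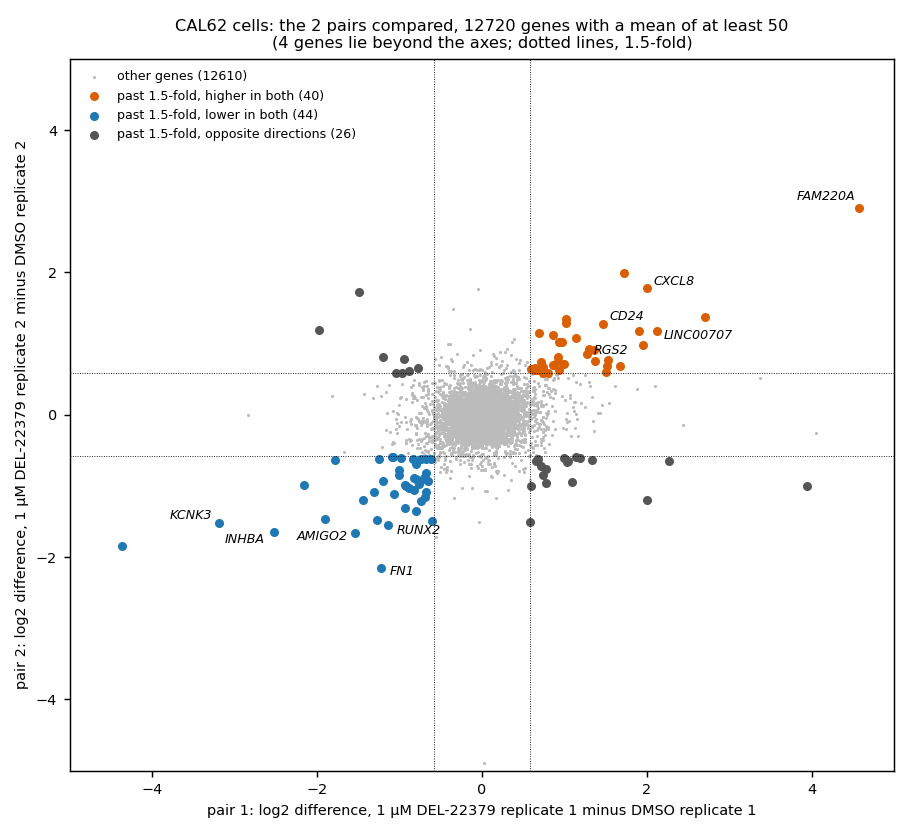
Log2 difference between 1 µM DEL-22379 and DMSO in pair 1 (x axis) and pair 2 (y axis) for 12720 genes, with dotted lines at 1.5-fold. Orange points are the 40 genes higher in both pairs, blue points the 44 lower in both and dark grey points the 26 past 1.5-fold in opposite directions, and the other genes are within 1.5-fold in at least 1 pair. In all, 4 of the 12720 genes lie beyond the axes.

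The same motifs were counted over these 84 genes. RefSeq promoters were matched for 26 of the 40 higher and 29 of the 44 lower genes. The AP-1 element was in 7 of 26 (26.9%), those of CXCL8, DCLK1, INSC, PAEP, PDE3A, PDE4D and SLC2A12, and in 2 of 29 (6.9%), AMIGO2 and RUNX2, against 6.6% of all 27305 promoters. The RUNX element was in 4 of 26 (15.4%) and 4 of 29 (13.8%), against 10.9%. The SMAD element CAGACA was in 4 of 26 (15.4%) and 0 of 29 (0%), against 13.6%. The response element TGACGTCA was in 2 of 26 (7.69%), DUSP1 and PDE7B, and in 1 of 29 (3.45%), FN1, against 1.77%. The ETS element CCGGAAGT was in 0 of 26 (0%) and 2 of 29 (6.9%), against 3.64%. Over the 15 genes of smallest p in each direction, the AP-1 element was in 0 of 9 matched promoters on the higher side (0%) and 2 of 10 on the lower side (20%). These shares describe the windows and were not tested.

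ERK target genes were mostly slightly higher rather than lower at 1 µM. Of 25 ERK output and feedback genes, 15 were higher and 4 lower in both pairs, and none passed the test. Over all genes tested, 23.2% were higher and 25.2% lower in both pairs. The list's median difference was 0.09, against -0.0019 for all genes tested. Among 12 housekeeping genes, 7 were higher and 3 lower in both pairs (median 0.05). Of 21 ribosomal protein genes, 1 was higher and 6 lower. A lean upwards was thus not particular to ERK target genes. DUSP6, the cytoplasmic ERK phosphatase, had 2014 and 1863 in DMSO and 2395 and 2111 at 1 µM. SPRY4, a feedback inhibitor upstream of RAF, had 1191 and 1081 against 1327 and 1366, and ETV1, an ETS factor induced by ERK, had 519 and 467 against 727 and 563. DUSP6, SPRY4 and ETV1 did not overlap between groups, with differences of 0.21 (SE 0.27), 0.25 (SE 0.27) and 0.38 (SE 0.22). SPRED2, which restrains RAF activation, differed by 0.15 (SE 0.11), and its groups overlapped. Among 24 immediate-early genes, 12 were higher and 4 lower in both pairs, with a median of 0.16. FOS had 454 and 799 in DMSO and 511 and 832 at 1 µM, JUN 4048 and 4069 against 4892 and 4174, and EGR1 3328 and 4108 against 4129 and 4477. The differences of 0.12 (SE 0.35) for FOS, 0.15 (SE 0.19) for JUN and 0.22 (SE 0.44) for EGR1 were smaller than their SE. Within pair 1 they were 0.17, 0.27 and 0.31, and within pair 2 they were 0.06, 0.04 and 0.12. Each fitted difference was below 0 when 1 µM replicate 1 was left out. That fit takes the replicate shift from the other CAL62 treatments, so its sign does not describe pair 2. MCL1, a survival protein of the BCL2 family, had 9330 and 9133 against 11506 and 10458 without overlap. KLF4, a zinc finger factor, was on the other side with 348 and 395 in DMSO and 270 and 296 at 1 µM.

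Genes of the mesenchymal state and the matrix were more often lower than higher. Among 13 tested mesenchymal factors and markers, 2 were higher and 7 lower in both pairs, and none passed the test. The median of the fitted differences was -0.20, but within pairs the median was only -0.07 in pair 1 and -0.09 in pair 2. FN1 and TGFBI were past 1.5-fold in both pairs. The factors that drive the transition gave no such difference. SNAI1 had 146 and 232 in DMSO and 183 and 229 at 1 µM, and ZEB1 1093 and 1075 against 1208 and 1129. SNAI2 was uneven, with 20.1 and 154 against 21.1 and 72.7. VIM (vimentin), an intermediate filament, had 48949 and 46076 against 50994 and 45390, and CDH2 (N-cadherin) had 4707 and 5263 against 3911 and 4758. CTNNB1 (β-catenin) had 9059 and 8720 against 8608 and 8691, and its fitted difference was -0.04 (95% interval -0.26 to 0.18). Of 7 tested epithelial markers, 0 were higher and 4 lower in both pairs. Their median was -0.20 in pair 1 and -0.10 in pair 2. Lower counts were thus not particular to mesenchymal genes.

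Matrix genes were also more often lower than higher. Of 19 tested collagen and matrix genes, 3 were higher and 11 lower in both pairs (median -0.24). COL4A2, a chain of basement membrane collagen, had 15901 and 19264 in DMSO and 12227 and 14913 at 1 µM without overlap, and its partner COL4A1 had 3952 and 6443 against 3042 and 4942. COL5A2 and COL6A2 were at 7.27 to 52.2 in the 4 libraries. Among 15 tested matrix proteases and inhibitors, 1 was higher and 7 lower in both pairs (median -0.20). The median within pairs was -0.30 in pair 1 and -0.01 in pair 2. PLAU (urokinase), a protease that activates plasminogen, had 45377 and 100149 in DMSO and 35670 and 71345 at 1 µM, so that its replicates differed more than its groups. MMP1 (collagenase) had 14.7 and 24.0 against 31.0 and 28.3, and ADAMTS15, an aggrecan-cleaving protease, had 5.35 and 93.2 against 0 and 19.4. Of 20 integrin and focal adhesion genes, 2 were higher and 7 lower in both pairs. ITGB5, which pairs with integrin αV, had 7805 and 8389 against 5469 and 6133 without overlap (-0.48, SE 0.15). ITGA6, a laminin receptor, was higher within pairs by 0.18 and 0.40 with overlapping groups.

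The TGF-β and BMP response list was divided. Of 18 genes, 6 were higher and 5 lower in both pairs, and its median was -0.02. The 5 that were lower included INHBA and TGF-β feedback genes. SMAD7, the inhibitory SMAD, had 261 and 587 in DMSO and 145 and 381 at 1 µM, and PMEPA1, which sequesters receptor SMADs, had 169 and 799 against 87.5 and 322. SKIL, a corepressor of SMADs, had 2350 and 3665 against 1584 and 2877, and LTBP2, of the latent TGF-β binding protein family, had 8644 and 13991 against 6006 and 9450. In SMAD7, PMEPA1, SKIL and LTBP2 each pair differed downwards while the groups overlapped. TGFBI, a matrix protein named for its induction by TGF-β, had 37.5 and 403 against 21.1 and 157. Among BMP targets, ID1 had 1887 and 5271 in DMSO and 2753 and 6939 at 1 µM, and like ID3 it was higher in both pairs.

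**Figure D3:**
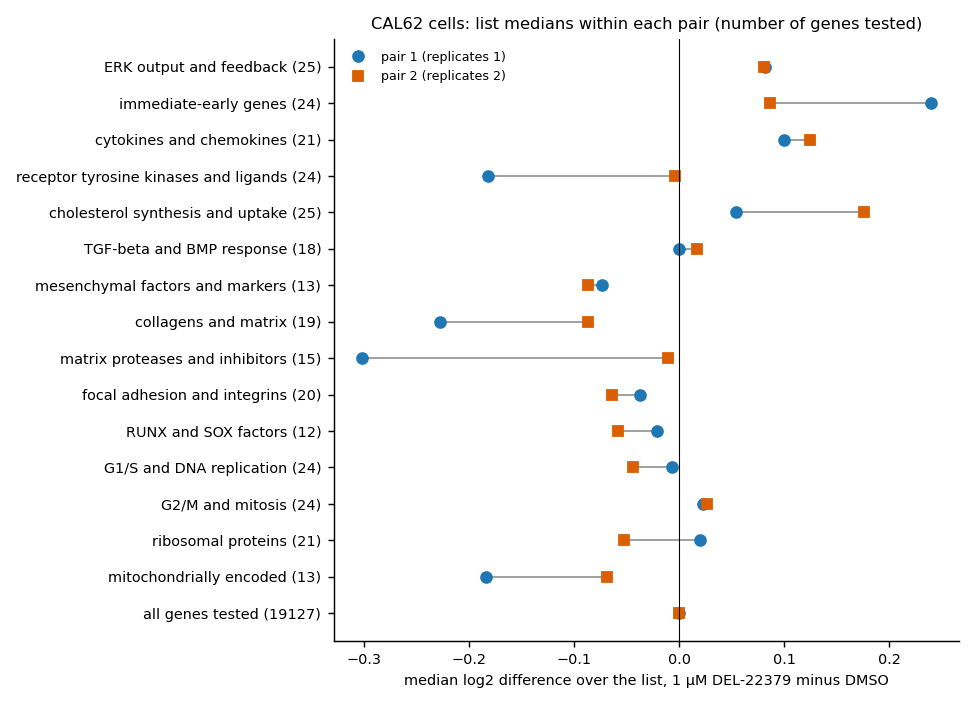
Median log2 difference between 1 µM DEL-22379 and DMSO over 15 gene lists and over all 19127 genes tested, in pair 1 (blue circles) and pair 2 (orange squares), with the number of genes tested in brackets. The medians stay within about 0.3 of 0 in both pairs, with ERK output genes at 0.08 in each and collagens at -0.23 and -0.09.

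The other CAL62 treatments share the DMSO libraries with the 1 µM comparison, and their values are given beside it. HBEGF had 9335 and 11801 normalized counts at 10 µM and 1179 and 1137 with U0126, and DUSP5 13682 and 11169 at 10 µM and 600 and 321 with U0126. Both therefore stood above the 1 µM libraries at 10 µM and below DMSO with U0126. LINC00707 went the other way from 1 µM. It had 40.8 and 35.1 at 10 µM and 29.9 and 44.7 with U0126, all under the DMSO level. RUNX2 stayed low at 10 µM, with 222 and 185, but reached 3601 and 2753 with U0126. FN1 had 9031 and 17530 at 10 µM and 906327 and 739858 with U0126. FOS and EGR1, which hardly differed at 1 µM, were at 25799 and 104625 and at 69316 and 214018 at 10 µM. The median over the 25 ERK output genes was 0.57 at 10 µM and -1.29 with U0126. These comparisons share their controls, and no overlap between them is read as a result.

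**Figure D4:**
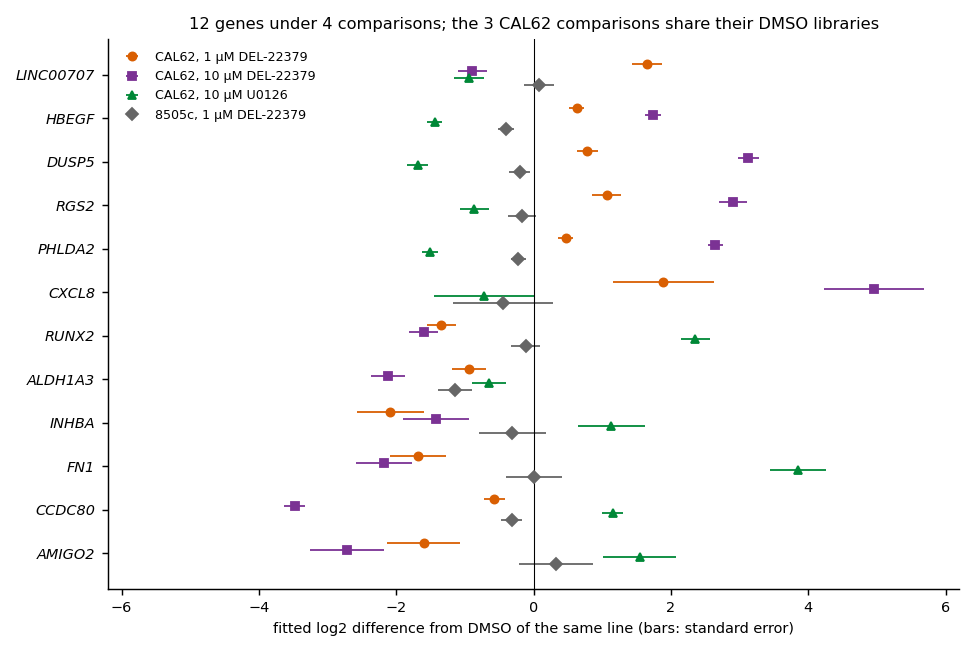
Fitted log2 difference from DMSO of the same line for 12 genes, with standard errors as bars, for CAL62 cells at 1 µM DEL-22379 (orange circles), 10 µM DEL-22379 (purple squares) and 10 µM U0126 (green triangles) and for 8505c cells at 1 µM DEL-22379 (grey diamonds). At 1 µM, LINC00707 lies at 1.65 in CAL62 and 0.08 in 8505c cells, and ALDH1A3 at -0.94 and -1.14.

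The 1 µM response was tested for a difference between the lines, which share no library. No gene passed in limma (0 of 19127, 0%, and 792 with an unadjusted p under 0.05), whereas edgeR called 1 gene and DESeq2 called 24. CRISPLD1, a secreted protein of the CAP family, was the gene that edgeR called. It had 1651 and 1094 in DMSO and 1256 and 1000 at 1 µM in CAL62 cells, and 1633 and 1830 in DMSO and 3798 and 3586 at 1 µM in 8505c cells. Its response was thus -0.26 in CAL62 and 1.09 in 8505c cells, with an adjusted p for the difference of 0.0816 in limma and 0.0255 in edgeR. HBEGF differed by 0.63 in CAL62 and by -0.40 in 8505c cells, where it had 8568 and 7000 in DMSO and 6205 and 5561 at 1 µM. The adjusted p for the difference of HBEGF was 0.201 in limma, 0.092 in edgeR and 2.6e-05 in DESeq2. SLC29A2, a nucleoside transporter, and RGMB, a BMP co-receptor, had the same adjusted p of 0.201 in limma, against 0.248 and 0.092 in edgeR and 0.0379 and 5.7e-05 in DESeq2. SLC29A2 differed by -0.17 in CAL62 and 1.86 in 8505c cells, and RGMB by 0.39 and -0.77. TNFRSF6B, a decoy receptor of Fas ligand, was at 0 in all 4 CAL62 libraries and gives no CAL62 response. ALDH1A3 differed by -0.94 in CAL62 and -1.14 in 8505c cells. The 25 ERK output genes had a median of -0.37 in 8505c and 0.09 in CAL62 cells, and this difference between medians was not tested.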

How the data were processed

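RNA-seq covered CAL62 and 8505c cells under 4 treatments with 2 biological replicates each. The deposited signal values are gene counts that the authors scaled by 1 size factor per library and rounded to 2 decimals. The labels give GRCh38. The aligner, counter, annotation and strand setting were not given in the sources used here. Low values were whole multiples of 1 step per library, so reads were recovered. All values checked, those under 200, lay within 0.02 reads plus an allowance for the rounding.

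Genes reaching 10 normalized counts in 2 of the 16 libraries were fitted as log2(value + 1) in limma 3.58.1 (R 4.3.3), with 8 group means, the replicate number within each line as a block, trended and robust moderation, 6 residual and 1.24 to 5.43 prior degrees of freedom. P-values were two-sided and Benjamini-Hochberg adjusted over all 19127 genes. Same-numbered libraries deviated together in all 6 pairs of CAL62 groups (correlations 0.22 to 0.504) and less in 8505c cells (0.0876 to 0.122). The pairing thus rests on the data and is not stated by the labels. Over genes with a mean of at least 50 normalized counts, the replicate shift of CAL62 DMSO correlated at 0.822 with that of 1 µM. It correlated at 0.303 with 10 µM and at 0.414 with U0126, while the block assumes 1 shift per line. The fit was run on simulated data that held 1 shift per line, so that run cannot test this assumption. Recovered reads were tested with edgeR 4.0.16 and DESeq2 1.42.0. Alternatives covered the pseudocount, filter, scaling, block, libraries in the fit, test and each library left out.

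Named genes were the 15 of smallest p in each direction that moved alike in both pairs and averaged at least 50 in the higher group, genes of the study's list and PCR, the 3 of smallest p per list and the 5 of smallest p between lines. AMIGO2, CD24, SEMA3F, SKIL, PMEPA1, LTBP2, COL4A1, DUSP6, SPRY4, CXCL1, NFKBIZ, DUSP1, APLN, PDE4D, PTPRB, TNFRSF11B, VDR, RUNX1, PLAU, PAX8 and ID1 were added after their values were seen. So were genes named only for a promoter element, for the 1.5-fold limit, as a caveat or in a plot. Members, lists and tests were chosen with earlier results of these data known. Genes withheld for evaluation are not reported here. Gene intervals are from GENCODE release 29 and promoters from RefSeq (GRCh38.p14).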

Additional observations from a re-analysis of the deposited data

How the results depend on the processing

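Counts of calls moved with the tool and the libraries, and the cause was not tested. Against 0 genes in limma with the replicate block, edgeR called 3 and DESeq2 called 6, and without the replicate block limma and edgeR called 0. On the 4 libraries alone, edgeR called 304 and DESeq2 68, both chosen after the data were seen, and limma 0. On the 8 CAL62 libraries, edgeR and limma called 0. Leaving out 1 library gave 0 to 13 genes in limma, with 13 without DMSO replicate 2 and 5 without 1 µM replicate 2. For the paper's 2 thresholds, applied here to log2 fold changes that were not shrunken, the count was 0, then 1 in DESeq2, 23 in edgeR and 6 in DESeq2 on the 4 libraries, and 0 to 5 with 1 library left out, 5 without DMSO replicate 2. For the difference between lines it was 0, then 1 in edgeR, 24 in DESeq2 and 0 to 1 with 1 library left out, 1 each without 1 µM replicate 2, DMSO replicate 2 and 8505c DMSO replicate 2. The 84 genes past 1.5-fold became 27 with a mean of at least 200 and 23 past 2-fold, both set after the data were seen. Fits with 1 library left out assume for the single library that remains in a group the spread of the other groups. They also take its replicate shift from the other groups of the same line.

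With 1 library left out, these log2 differences changed sign, over the ranges -5.32 to 1.52 for UTP14C, -0.30 to 0.53 for FOS, -0.12 to 0.43 for JUN, -0.40 to 0.83 for EGR1, -0.36 to 0.66 for SNAI1 and -1.68 to 0.67 for SNAI2. The ranges were -0.019 to 0.056 for VIM, -0.11 to 0.027 for CTNNB1, -0.16 to 0.077 for RUNX1 and -0.31 to 0.041 for PAX8. No other setting turned the direction of any of the 94 genes recomputed. These leave out genes named only for a promoter element, for the 1.5-fold limit or as a caveat. With 2 replicates per group, differences within the spread between libraries were not detectable.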

Other observations

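Genes of cholesterol synthesis and uptake leaned one way at 1 µM. Of 25, 16 were higher and 0 lower in both pairs, with a median difference of 0.13, and none passed the test. LSS, lanosterol synthase, had 1567 and 1430 normalized counts in DMSO and 1864 and 1716 at 1 µM, and FDFT1, squalene synthase, had 3516 and 3465 against 4770 and 4161. Both were without overlap. ACAT2, which makes acetoacetyl-CoA, had 1212 and 997 against 1701 and 1170 with overlap. In 8505c cells at 1 µM the list's median was 0.62.

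Transport and energy genes were uneven. SLC7A5, a leucine transporter, had 44139 and 39965 in DMSO and 34616 and 27788 at 1 µM, and SLC2A1, the glucose transporter GLUT1, had 9458 and 9353 against 7698 and 7093, both without overlap. HK2, hexokinase, had 1029 and 787 against 1296 and 981, with overlapping groups. Of the 13 mitochondrially encoded genes, 1 was higher and 9 lower in both pairs (median -0.11). Their share of all counts was 8.02% and 6.72% in DMSO and 7.23% and 6.55% at 1 µM.

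Of 24 G1/S and replication genes, 5 were higher and 10 lower in both pairs (median -0.03), and of 24 G2/M genes 10 were higher and 3 lower (median 0.03). Among single members of other lists, the receptor ERBB3 had 182 and 198 in DMSO and 292 and 271 at 1 µM, and FDXR, a mitochondrial reductase, had 456 and 440 against 322 and 333. Neither overlapped. AMOTL2, a YAP target, had 11175 and 10482 against 15091 and 12106, also without overlap. IRF1, an interferon-induced factor, had 253 and 441 against 206 and 296, and SOX4, a developmental factor, had 163 and 335 against 113 and 221. The groups of IRF1 and SOX4 overlapped.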
